A study of Homo sapiens with 9 samples.

Results

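The genes described here are the autophagy machinery of PANC-1 cells, 40 listed genes that build the autophagosome, choose its cargo or control its transcription. They were listed by name and not picked by their values, though earlier results of these data were known when the lists were made. A gene was measured where a probe set of the array was annotated to it and to no other gene. Of the 40 genes, 32 had such a probe set, 1 each, out of 14232 genes tested on the array. BECN1, WIPI1, ATG4D, ATG16L1, GABARAPL1 and SQSTM1 were named only on probe sets that list several genes, and were given no value. ATG2A and ATG4B were not analysed here.

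PANC-1 is an established human cell line from a pancreatic carcinoma. The cells received the lipid reagent Lipofectamine RNAiMAX alone (the non-transfected group), a negative control miRNA mimic at 20 nM, or a miR-520f mimic at 20 nM, a mimic being a synthetic double-stranded RNA that loads into the cell's own miRNA machinery. RNA was taken after 72 h, and each of the 3 groups was measured on 3 arrays that the labels call biological replicates. The series' design compares miR-520f with each control and takes genes that moved the same way against both. All groups come from 1 cell line and 1 time point, and an excess of mimic is not the level that a cell makes itself.

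Macroautophagy encloses cytoplasm in a double membrane and delivers it to the lysosome. The ULK1 kinase complex starts the process, a lipid kinase complex around PIK3C3 marks the growing membrane with phosphatidylinositol 3-phosphate, and ATG9A and ATG2 proteins supply lipid. A pair of ubiquitin-like conjugation reactions, both begun by ATG7, then attaches proteins of the ATG8 family to that membrane, where receptors bring the cargo. Pancreatic carcinoma cells are known for a high basal rate of autophagy.

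A miRNA is thought to find its targets mainly through its seed, bases 2 to 8 from the 5′ end, so the seeds of the transfected miRNA and of relatives with the same core are shown, in capitals. The labels do not say which arm of miR-520f the mimic carried, and both arms are given. The sequences are those of RefSeq.
hsa-miR-520f-3p: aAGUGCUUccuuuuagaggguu
hsa-miR-520f-5p: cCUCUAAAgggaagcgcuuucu
hsa-miR-302a-3p: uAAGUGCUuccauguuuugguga
hsa-miR-373-3p: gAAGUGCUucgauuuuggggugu
In build GRCh38.p14 the 3p arm of miR-520f lies at chr19:53682213-53682234 and the 5p arm at chr19:53682173-53682194, both on the plus strand. miR-302a-3p lies at chr4:112648186-112648208 on the minus strand and miR-373-3p at chr19:53788748-53788770 on the plus strand. Of 2370 mature human miRNAs in the table, 1, miR-520f-3p itself, had its seed. Bases 2 to 7 of miR-520f-3p stood 1 position later, at bases 3 to 8, in 13 others, among them miR-302a-3p and miR-373-3p. No transcript sequence was searched for seed matches, so no gene described here is called a target.

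Levels are log2 values after RMA, a normalization between arrays, and 1 unit is a doubling of the signal. A gene was called changed at a Benjamini-Hochberg adjusted p under 0.05, adjusted over all genes tested, in a limma fit of the 3 groups. The array medians lay between 4.22 and 4.34. Of 7 epithelial markers measured, 5 were above 5 on every array, KRT8 among them at 11.3 to 11.8, while the keratins KRT7 (3.43 to 3.56) and KRT80 (from 3.53) were under 5 on every array. CDKN2A, which is deleted in PANC-1, lay between 3.07 and 3.28, and the 4 endothelial and 4 immune markers measured were all under 5, as were 5 of 6 fibroblast markers. COL1A1, the exception, reached 8.23. Negative control replicate 1 departed most from the mean of its group, by 0.169 as the root mean square over genes, where the other arrays departed by 0.0698 to 0.131. It was the lowest or the highest of the 9 arrays in 15 of the 32 autophagy genes, in 11 of them the lowest. In a bulk measurement, fewer cells that express a gene and less RNA per cell cannot be told apart.

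With miR-520f, autophagy genes moved in both directions, and the conjugation enzyme ATG7 and the mitochondrial receptor BNIP3L were clearly lower. The rises against both controls, 6 in number, were in ATG13, RB1CC1, AMBRA1, ATG2B, WIPI2 and ATG4C. ATG7, OPTN and BNIP3L fell against both. These were 18.8% of the 32 genes for rises and 9.38% for falls, beside 9.37% and 8.61% of all genes tested. Rises were 2 of 5 initiation genes (40%), 1 of 5 around the lipid kinase (20%) and 2 of 4 for membrane supply (50%). With so few genes in each, these counts say nothing about a step as a whole. Both comparisons use the same 3 miR-520f arrays, so their calls are not independent.

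Against non-transfected cells, 8 autophagy genes rose and 4 fell, beside 14.5% and 13.1% of all genes, and the median difference was 0.13 beside -0.03 over all genes. Against the negative control, 10 rose and 5 fell, beside 15.4% and 12.6% of all genes, with medians of 0.13 and -0.03. The counts of falling genes were 12.5% and 15.6% of the list, and those of rising genes 25.0% and 31.2%. The control mimic moved some of these genes too: against non-transfected cells it raised 2 and lowered 5, beside 7% and 8.28% of all genes. After each array was centred on its median these were 4 and 4, and the share of higher genes among all calls between the controls went from 45.8% to 56.3%. The same centring gave 10 rises and 3 falls for miR-520f against each control. The share of higher genes among all its calls went from 52.5% to 61.7% against non-transfected cells and from 55% to 58.4% against the negative control. Without negative control replicate 1, 9 autophagy genes rose and 5 fell against non-transfected cells, 8 rose and 7 fell against the negative control, and 4 rose and 4 fell between the controls. In 12 of the 32 genes the miR-520f range did not overlap that of the 6 control arrays, which held for 25.4% of all genes. No call was made in either miR-520f comparison for 15 genes, and none of these was called between the controls.

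**Figure D1:**
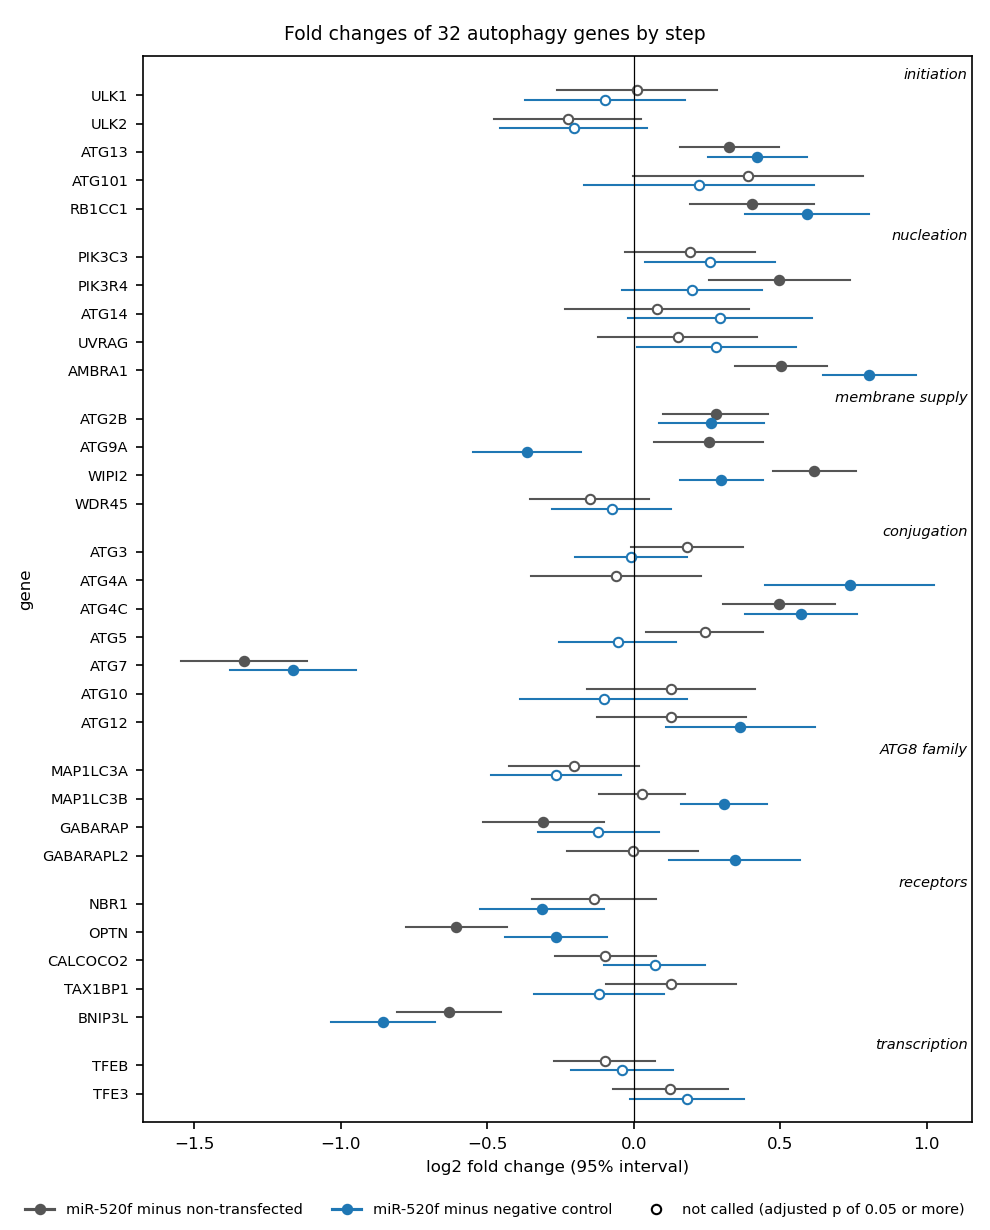
Difference in log2 level of the 32 measured autophagy genes, ordered by step, for miR-520f against each control. Points are limma estimates, bars their 95% intervals, and filled points passed the adjusted p threshold; ATG7 lies farthest left, at -1.33 and -1.16, and the filled initiation genes lie to the right of 0.

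In the initiation complex, ATG13 and RB1CC1 rose and the kinases did not pass the test. ATG13 couples ULK1 to its scaffold, and it measured 7.70, 7.63 and 7.58 in non-transfected cells, 7.41, 7.62 and 7.61 with the negative control and 7.95, 7.96 and 7.99 with miR-520f. The 3 miR-520f arrays lay above all 6 control arrays. The rise was 0.33 over non-transfected cells (SE 0.08, limma adjusted p = 0.00774) and 0.42 over the negative control (SE 0.08, adjusted p = 0.00154), or 25.3% and 33.9% on the linear scale. RB1CC1, also called FIP200, is that scaffold, and it measured 7.59, 7.59 and 7.62, then 7.26, 7.35 and 7.62, then 8.09, 7.90 and 8.02 in the same order of groups. Its miR-520f values did not overlap those of either control. It rose by 0.40 over non-transfected cells (SE 0.10, adjusted p = 0.00819) and by 0.59 over the negative control (SE 0.10, adjusted p = 0.000718).

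The kinase ULK1 measured 6.84 to 7.10 in non-transfected cells, 6.90 to 7.31 with the negative control and 6.83 to 7.19 with miR-520f, so its 3 groups overlapped. ULK2, the related kinase, averaged 6.57 ± 0.10 in non-transfected cells, 6.54 ± 0.24 with the negative control and 6.34 ± 0.09 with miR-520f (SD, n = 3 here and below), with differences of -0.23 (adjusted p = 0.195) and -0.21 (adjusted p = 0.235). Without negative control replicate 1 it passed against both controls, at -0.34 (adjusted p = 0.0109) against the negative control. ATG101, which stabilises ATG13, was spread widely, with 5.56, 6.27 and 6.39 on the negative control arrays. Its differences of 0.39 and 0.22 did not pass. Without negative control replicate 1, whose value of 5.56 was the lowest of the 9, the difference from non-transfected cells passed (0.39, adjusted p = 0.00475), that from the negative control was -0.04, and the control mimic was 0.43 above non-transfected cells (adjusted p = 0.0132). The difference from non-transfected cells also passed in a fit of those 2 groups alone (adjusted p = 0.0069).

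Of the lipid kinase complex and its regulators, AMBRA1 rose against both controls and PIK3R4 against non-transfected cells. AMBRA1, a scaffold that binds Beclin 1 and promotes ULK1 activity, measured 6.36, 6.42 and 6.37 in non-transfected cells, 5.97, 6.11 and 6.15 with the negative control and 6.86, 6.94 and 6.85 with miR-520f. The 3 groups were fully separate, with the negative control lowest and miR-520f highest. AMBRA1 rose by 0.50 over non-transfected cells (SE 0.07, limma adjusted p = 0.000329) and by 0.80 over the negative control (SE 0.07, adjusted p = 1.16e-05). The negative control itself lowered it (difference -0.30, adjusted p = 0.0157), so the size of the miR-520f rise depended on the control. The call between the controls was lost without non-transfected replicate 2 and with a prior spread that follows the level (limma-trend), with adjusted p up to 0.0736. In the gene table AMBRA1 and ATG13 are near neighbours on chromosome 11, with 1 protein-coding gene, HARBI1, between them. TFE3 and WDR45 on chromosome X, with 2 such genes between them, are also near neighbours, and neither passed in any comparison. Whether position matters was not tested.

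PIK3R4, the regulatory subunit VPS15, measured 6.10, 6.06 and 6.12 in non-transfected cells, 6.49, 6.53 and 6.17 with the negative control and 6.58, 6.43 and 6.76 with miR-520f. Its miR-520f values overlapped the negative control and lay above the non-transfected arrays. The difference was 0.50 over non-transfected cells (SE 0.11, adjusted p = 0.00515) and 0.20 over the negative control (adjusted p = 0.231). The catalytic subunit PIK3C3 differed by 0.19 and 0.26 (adjusted p = 0.219 and 0.0821). ATG14, which directs the complex to autophagosome formation, differed by 0.08 and 0.29, neither past the test. The latter was 0.11 without negative control replicate 1. UVRAG, which takes the place of ATG14 in the endosomal complex, was higher on all 3 miR-520f arrays (7.71 to 7.81) than on any control array (up to 7.69), but its differences of 0.15 and 0.28 did not pass (adjusted p = 0.486 and 0.124). Against the negative control UVRAG was 0.11 without its replicate 1, and 0.39 (adjusted p = 0.043) without its replicate 2. PIK3C3 against the negative control was 0.16 without its replicate 1, and 0.34 (adjusted p = 0.0347) without its replicate 3.

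Among the genes of membrane supply, WIPI2 and ATG2B rose against both controls and ATG9A moved in opposite directions. WIPI2 reads phosphatidylinositol 3-phosphate and recruits ATG16L1, and it measured 7.02, 7.01 and 7.05 in non-transfected cells, 7.40, 7.35 and 7.29 with the negative control and 7.67, 7.64 and 7.61 with miR-520f. The groups did not overlap, and the negative control lay between the others. The rise was 0.62 over non-transfected cells (SE 0.06, limma adjusted p = 3.7e-05), of which the negative control alone showed 0.32 (adjusted p = 0.00705), and it was 0.30 over the negative control (SE 0.06, adjusted p = 0.0047).

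ATG2B, which carries lipid from the endoplasmic reticulum, measured 3.85, 3.82 and 3.83, then 3.77, 3.93 and 3.85, then 3.996, 4.26 and 4.09, in the order non-transfected, negative control and miR-520f. All 3 miR-520f arrays were above the others. ATG2B was low on every array, at 3.77 to 4.26 beside array medians of 4.22 to 4.34. Its rises of 0.28 (SE 0.08, adjusted p = 0.0241) and 0.26 (SE 0.08, adjusted p = 0.0314) were close to the threshold. Against non-transfected cells the call was lost without non-transfected replicate 2 or 3 (adjusted p = 0.0786 and 0.0614) or miR-520f replicate 2 or 3 (adjusted p = 0.102 and 0.0519). Against the negative control it was lost without non-transfected replicate 2 (adjusted p = 0.0508), negative control replicate 1 or 3 (0.0815 and 0.0622) or miR-520f replicate 2 or 3 (0.131 and 0.0608), in an unmoderated fit (0.0513) and in a fit of the 2 groups alone (0.0617).

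ATG9A, the scramblase of the vesicles that seed the membrane, measured 7.64, 7.53 and 7.50 in non-transfected cells, 8.32, 8.19 and 8.03 with the negative control and 7.82, 7.84 and 7.77 with miR-520f. The miR-520f arrays lay between the controls without overlap. It rose by 0.25 over non-transfected cells (SE 0.08, adjusted p = 0.0434) and fell against the negative control, by -0.37 (SE 0.08, adjusted p = 0.00669). Calls with opposite signs were made in 0.436% of all genes. The difference between the 2 controls, 0.62 (adjusted p = 0.000676), was larger than either. The rise over non-transfected cells was lost without non-transfected replicate 2 or 3, negative control replicate 2 or any 1 miR-520f array (adjusted p from 0.0619 to 0.133). WDR45, the WIPI protein that binds ATG2, differed by -0.15 and -0.08, neither past the test.

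ATG7 showed the largest change of the 32 genes. It is the E1-like enzyme that activates both ATG12 and the ATG8 proteins, so both conjugation reactions pass through it. It measured 6.36, 6.16 and 6.07 in non-transfected cells, 6.02, 6.16 and 5.90 with the negative control and 4.78, 4.85 and 4.96 with miR-520f. The miR-520f arrays lay far below all 6 control arrays, and the controls overlapped. ATG7 fell by 60.3% against non-transfected cells, a log2 difference of -1.33 (SE 0.10, limma adjusted p = 3e-06), and fell by 55.3% against the negative control, a difference of -1.16 (SE 0.10, adjusted p = 7.31e-06). The controls differed by -0.17 (adjusted p = 0.333). It was the 1 autophagy gene that moved by more than 1 log2 unit against both controls, and it ranked 108 of the 1226 genes that fell against both by the smaller of its 2 differences.

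ATG4C, a protease that trims ATG8 proteins and frees them from membranes, rose. It measured 4.59, 4.42 and 4.35 in non-transfected cells, 4.43, 4.45 and 4.26 with the negative control and 4.93, 4.89 and 5.03 with miR-520f. The miR-520f arrays lay above all 6 control arrays, and the controls overlapped. The rise was 0.50 (SE 0.09, adjusted p = 0.00128) and 0.57 (SE 0.09, adjusted p = 0.000467). Its control levels were low, at 4.26 to 4.59 beside array medians of 4.45 to 4.56 over the genes tested.

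ATG4A, a related protease, was low with the negative control alone. It measured 6.18, 6.02 and 6.03 in non-transfected cells, 4.92, 5.42 and 5.50 with the negative control and 6.08, 5.95 and 6.02 with miR-520f. The miR-520f arrays overlapped the non-transfected ones and lay above the negative control. It rose by 0.74 over the negative control (SE 0.13, limma adjusted p = 0.00138), was -0.06 from non-transfected cells (adjusted p = 0.832), and fell by 0.80 with the negative control (adjusted p = 0.00217). Without negative control replicate 1 these were 0.56 over the negative control (adjusted p = 0.000451) and -0.62 for the control mimic (adjusted p = 0.000759).

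ATG12, the ubiquitin-like protein that ATG7 activates for transfer to ATG5, measured 5.12, 5.06 and 4.93 in non-transfected cells, 5.02, 4.85 and 4.53 with the negative control and 5.23, 5.07 and 5.20 with miR-520f. It rose by 0.36 over the negative control (SE 0.12, adjusted p = 0.036), and the miR-520f arrays overlapped the non-transfected ones. That call was lost without non-transfected replicate 2, negative control replicate 2 or 3 or miR-520f replicate 1 or 3 (adjusted p from 0.0522 to 0.119). ATG5, the acceptor of ATG12, was at 7.48 ± 0.11, 7.78 ± 0.09 and 7.72 ± 0.13, with differences of 0.24 (adjusted p = 0.0753) and -0.05. The E2-like enzymes ATG3, for ATG8 proteins, and ATG10, for ATG12, differed by 0.18 and 0.13 from non-transfected cells and by -0.01 and -0.10 from the negative control, none past the test. Of the 7 conjugation genes measured, 1, ATG7, fell against both controls and 1, ATG4C, rose, 14.3% each way beside 8.61% and 9.37% of all genes. With so few genes this count says nothing about the step as a whole. After median centring ATG3 and ATG5 passed against non-transfected cells, at 0.25 and 0.31 (adjusted p = 0.0453 and 0.0265).

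**Figure D2:**
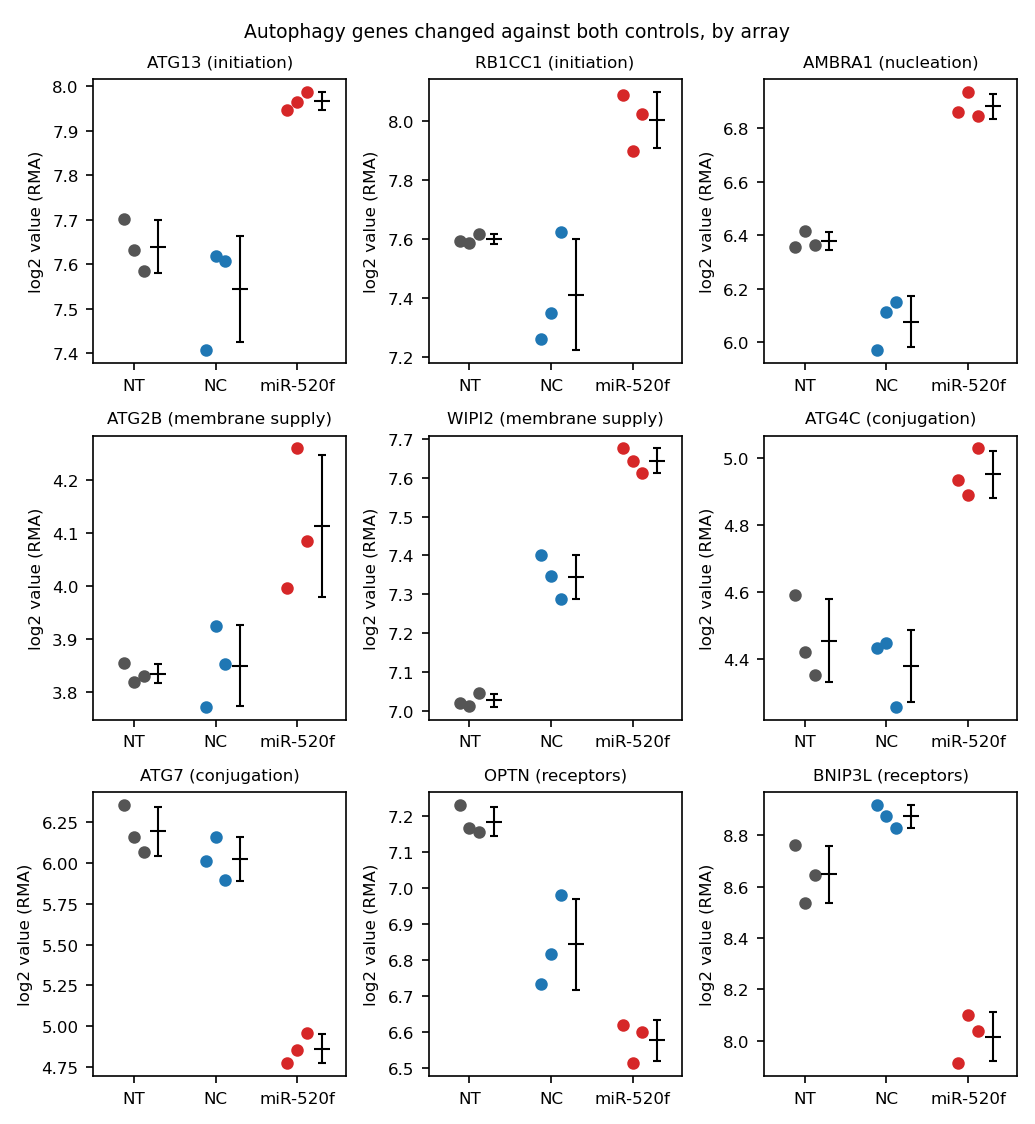
Log2 level on each of the 9 arrays for the 9 autophagy genes that changed against both controls; points are arrays, black marks the mean ± SD of 3, and each panel has its own level range. The 3 miR-520f arrays lie apart from all 6 control arrays in each panel, above them in 6 genes and below them in ATG7, OPTN and BNIP3L.

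The ATG8 family itself did not change against both controls in any of the 4 members measured. MAP1LC3B, the LC3 protein most used to follow autophagosomes, measured 11.57, 11.70 and 11.67 in non-transfected cells, 11.40, 11.38 and 11.31 with the negative control and 11.68, 11.67 and 11.66 with miR-520f. The miR-520f arrays lay within the non-transfected range and above the negative control. It rose by 0.31 over the negative control (SE 0.07, limma adjusted p = 0.00487), was 0.03 from non-transfected cells (adjusted p = 0.849), and was lowered by the control mimic (-0.28, adjusted p = 0.0164). The last call was lost without non-transfected replicate 2 or 3 (adjusted p = 0.0846 and 0.0511), and in a fit of the 2 control groups alone.

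GABARAPL2, a further ATG8 protein, was likewise lowest with the negative control, with 7.19, 7.37 and 7.15, then 6.87, 6.75 and 7.03, then 7.20, 7.10 and 7.39. The miR-520f arrays overlapped the non-transfected ones and lay above the negative control. It rose by 0.34 over the negative control (SE 0.10, adjusted p = 0.0253), and the control mimic lowered it (-0.35, adjusted p = 0.0403). The rise was lost without negative control replicate 1 or 2 or miR-520f replicate 1 or 3 (adjusted p from 0.0528 to 0.105), and the effect of the control mimic was lost without any 1 non-transfected array, negative control replicate 1 or 2 or miR-520f replicate 1 (adjusted p from 0.054 to 0.168). GABARAP, which acts later in autophagosome closure, measured 10.40, 10.18 and 10.25, then 9.97, 10.05 and 10.25, then 9.88, 9.95 and 10.08. It fell against non-transfected cells (-0.31, SE 0.09, adjusted p = 0.0294) and differed by -0.12 from the negative control, whose arrays it overlapped. The fall was lost without non-transfected replicate 1 or 3 or miR-520f replicate 1 or 2 (adjusted p from 0.0595 to 0.123). MAP1LC3A, another LC3 protein, was lower on the 3 miR-520f arrays (4.24 to 4.43) than on any control array (from 4.46), with differences of -0.20 and -0.27 that did not pass (adjusted p = 0.184 and 0.0745). The second was -0.34 and passed without negative control replicate 1 (adjusted p = 0.0286).

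**Figure D3:**
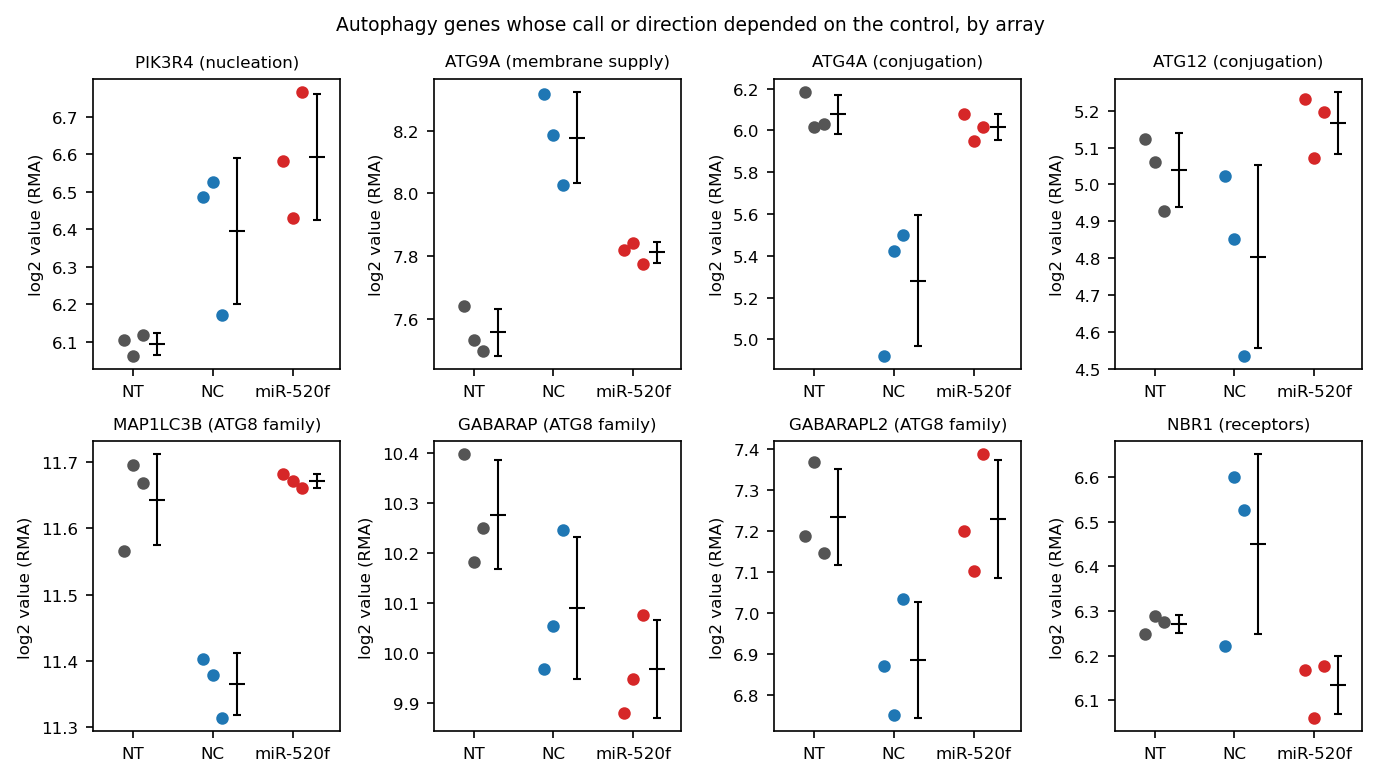
Log2 level on each of the 9 arrays for the 8 autophagy genes called in 1 miR-520f comparison or with opposite signs; points are arrays, black marks the mean ± SD of 3, and each panel has its own level range. In ATG4A, MAP1LC3B and GABARAPL2 the negative control arrays are low while miR-520f and non-transfected arrays overlap, and in ATG9A the negative control is highest.

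Of the 5 cargo receptors measured, BNIP3L and OPTN fell against both controls and none rose. The falls were 40% of the 5 and the rises 0%, beside 8.61% and 9.37% of all genes. With so few genes this count says nothing about the receptors as a whole. BNIP3L, also called NIX, sits in the outer mitochondrial membrane and binds ATG8 proteins to bring mitochondria to the autophagosome. It measured 8.76, 8.54 and 8.65 in non-transfected cells, 8.92, 8.87 and 8.83 with the negative control and 7.91, 8.10 and 8.04 with miR-520f. None of the miR-520f arrays reached the lowest of the 6 control arrays. It fell by 35.4% against non-transfected cells (log2 difference -0.63, SE 0.08, limma adjusted p = 0.000151) and fell by 44.8% against the negative control (log2 difference -0.86, SE 0.08, adjusted p = 1.65e-05).

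OPTN, a receptor that binds ubiquitin on damaged mitochondria and bacteria, measured 7.23, 7.17 and 7.15, then 6.73, 6.82 and 6.98, then 6.62, 6.51 and 6.60. The groups did not overlap, and the negative control lay between the others. The fall against non-transfected cells was -0.61 (SE 0.08, adjusted p = 0.000162), and the control mimic alone gave -0.34 (adjusted p = 0.0136). Against the negative control it was -0.27 (SE 0.08, adjusted p = 0.0255). That call was lost after median centring (adjusted p = 0.051), with limma-trend, which lets the prior spread follow the level (0.0664), and without negative control replicate 2 or 3 (0.0529 and 0.0913) or miR-520f replicate 1, 2 or 3 (0.056, 0.0959 and 0.0541).

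NBR1, a ubiquitin-binding receptor for protein aggregates, measured 6.25, 6.29 and 6.28, then 6.22, 6.60 and 6.53, then 6.17, 6.06 and 6.18. The miR-520f arrays lay below all control arrays, the nearest being negative control replicate 1. The difference was -0.31 against the negative control (SE 0.10, adjusted p = 0.0295) and -0.14 against non-transfected cells (adjusted p = 0.393). The call was lost without negative control replicate 2 or 3 or any 1 miR-520f array (adjusted p from 0.0557 to 0.117). The difference was -0.43 without negative control replicate 1 (adjusted p = 0.00111). CALCOCO2 (NDP52) and TAX1BP1, related ubiquitin receptors, differed by -0.10 and 0.13 from non-transfected cells and by 0.07 and -0.12 from the negative control, none past the test. CALCOCO2 passed against non-transfected cells after further quantile normalization (-0.19, adjusted p = 0.0315).

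TFEB and TFE3, transcription factors that switch on lysosomal and autophagy genes, did not pass in any comparison. TFEB was at 4.02 ± 0.08, 3.96 ± 0.11 and 3.92 ± 0.05, and TFE3 at 5.62 ± 0.15, 5.56 ± 0.07 and 5.75 ± 0.08. The TFEB levels were under the array medians of 4.22 to 4.34. These are transcript levels, and both factors are known to be controlled mainly by phosphorylation and entry into the nucleus. The letters CACGTG, the core of the E-box these factors bind, were searched on both strands, which read the same, in promoters from 250 bases before to 50 after the start. They were found in 2 of the 28 measured autophagy genes with a promoter in the table, ATG14 and ATG3, or 7.14%, beside 7.26% of all 35116 promoters. None of the 5 rising or 2 falling genes with a promoter in the table held them. With so few promoters, and 7.26% of all promoters holding the letters, finding none says nothing about these factors.

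The 15 genes called in neither comparison had differences of -0.23 to 0.39 from non-transfected cells and -0.27 to 0.29 from the negative control. Their 95% intervals reached from -0.48 to 0.78 and from -0.49 to 0.61. These intervals are the sizes of difference that the 3 arrays a group leave possible for them. The genes are ULK1, ULK2, ATG101, PIK3C3, ATG14, UVRAG, WDR45, ATG3, ATG5, ATG10, MAP1LC3A, CALCOCO2, TAX1BP1, TFEB and TFE3.

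By the smaller of their 2 differences, the rising autophagy genes were not among the largest rises. AMBRA1 ranked 588 and ATG4C 603 of the 1333 genes that rose against both controls. RB1CC1 ranked 854, ATG13 1122, WIPI2 1208 and ATG2B 1280. BNIP3L ranked 458 and OPTN 1166 of the 1226 falls. ATG13, RB1CC1, AMBRA1, WIPI2, ATG4C, ATG7 and BNIP3L kept both calls under all 16 alternatives run. Without negative control replicate 1, the differences from the negative control were 0.35 for ATG13, 0.52 for RB1CC1 and 0.75 for AMBRA1. Of the calls in a single comparison, those of PIK3R4, ATG4A and MAP1LC3B for miR-520f were kept throughout. The calls of ATG9A against non-transfected cells and of NBR1 against the negative control were each lost under 9 of the 16, with adjusted p up to 0.235 and 0.117. ATG12 lost its call under 7, GABARAP under 6 and GABARAPL2 under 5.

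The genes around the machinery moved in both directions as well. Of 88 measured genes listed as upstream regulators, further core factors, other receptors, fusion factors, lysosomal genes and transcription factors, 18 rose and 12 fell against both controls, or 20.5% and 13.6%, beside 9.37% and 8.61% of all genes. These lists too were made with earlier results of these data known. Upstream, PRKAA1, a catalytic subunit of the energy sensor AMPK, fell from 7.24 ± 0.02 in non-transfected cells and 7.44 ± 0.07 with the negative control to 6.40 ± 0.13 with miR-520f (differences -0.84 and -1.04). RRAGD, a GTPase that recruits mTORC1 to the lysosome, fell by a similar amount (-0.86 and -1.09). SESN1, a sestrin that restrains mTORC1, rose by 0.76 and 0.78. Of the 22 upstream genes, 3 rose and 3 fell against both controls, 13.6% each way beside 9.37% and 8.61% of all genes.

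Of the 13 genes for fusion of the autophagosome with the lysosome, 2 rose and 1 fell against both controls, or 15.4% and 7.69%, beside 9.37% and 8.61% of all genes. STX17, the syntaxin of the autophagosome, rose from 4.76 ± 0.16 and 4.47 ± 0.20 to 5.85 ± 0.03, by 1.09 over non-transfected cells and 1.38 over the negative control (limma adjusted p = 2.63e-05 and 4.77e-06). FYCO1, an adaptor that links autophagosomes to kinesin, fell from 4.88 ± 0.08 and 5.45 ± 0.14 to 3.73 ± 0.05, with differences of -1.15 and -1.72 (adjusted p = 3e-06 and 2.2e-07). VPS33A, a subunit of the HOPS tethering complex, rose by 0.49 and 0.33.

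Of the 17 other receptor and mitophagy genes, 4 rose and 3 fell against both controls, or 23.5% and 17.6%, beside 9.37% and 8.61% of all genes. KEAP1, which holds the transcription factor NFE2L2 in check and is itself removed through SQSTM1, fell (-0.98 and -0.75). CCPG1, a receptor for the endoplasmic reticulum, fell (-0.65 and -0.72), and TOLLIP, a ubiquitin-binding adaptor, rose by 0.51 and 0.98. Of the 11 further core factors, 2 rose and 1 fell against both controls, or 18.2% and 9.09%, beside 9.37% and 8.61% of all genes. WDR45B rose by 0.51 and 0.58, and NRBF2, a subunit of the PIK3C3 complex, rose by 0.27 and 1.28. TRAF6, a ubiquitin ligase, fell (-0.34 and -0.40). NRBF2 was lowered by the control mimic alone (-1.01, adjusted p = 3.51e-05), so its 2 differences are far apart.

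Of the 20 lysosomal genes that TFEB is known to control, 5 rose and 4 fell against both controls, or 25.0% and 20.0%. The sialidase NEU1 rose by 0.59 and 0.95, the galactosidase GLA by 0.73 and 0.54, and ATP6V1A, a subunit of the proton pump, by 0.55 and 0.44. Of 5 further transcription factors, 2 rose against both controls and none fell, or 40% and 0%, beside 9.37% and 8.61% of all genes. DDIT3 (CHOP), a factor of the stress response, rose by 1.09 and 0.64, and HIF1A, the oxygen-regulated factor, by 0.44 and 0.81. Among these named genes RRAGD, PRKAA1, SESN1, FYCO1, STX17, NEU1, GLA and DDIT3 kept both calls under all 16 alternatives, and VPS33A under 4, HIF1A under 8 and NRBF2 under 10. Some group means lay under the array medians of 4.22 to 4.34. They were RRAGD (3.52) and FYCO1 (3.73) with miR-520f, NRBF2 (3.65) with the negative control, and SESN1 in both controls (3.89 and 3.87). Besides NRBF2, the control mimic itself moved some of the named genes against non-transfected cells. It raised FYCO1 (0.57, limma adjusted p = 0.00111) and DDIT3 (0.45, adjusted p = 0.0492). It lowered TOLLIP (-0.46, adjusted p = 0.0272) and NEU1 (-0.36, adjusted p = 0.0154). For these genes the size of the miR-520f difference depended on the control.

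**Figure D4:**
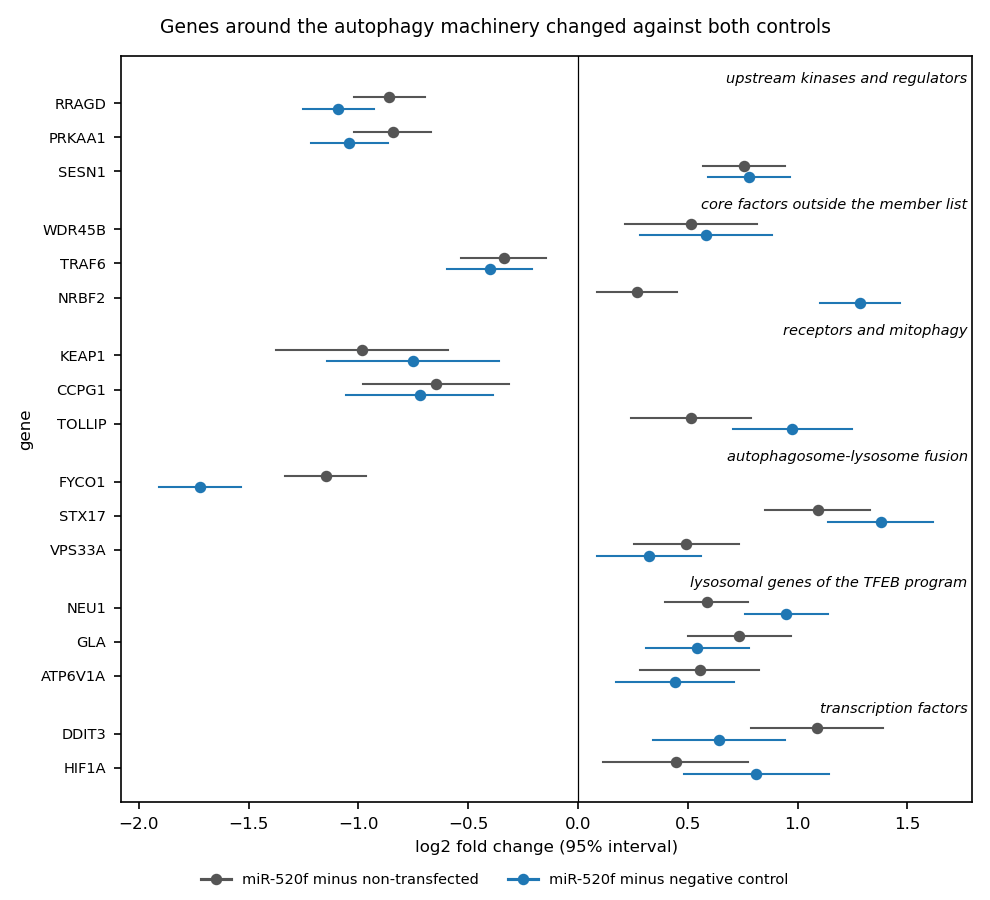
Difference in log2 level for the 17 named genes around the machinery, miR-520f against each control, with 95% intervals from limma. All 17 passed in both comparisons; FYCO1 lies lowest at -1.15 and -1.72, and STX17 highest at 1.09 and 1.38.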

How the data were processed

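Total RNA from 9 PANC-1 samples was labelled with an Affymetrix whole-transcript kit and hybridised, per the labels' protocols. The authors deposited log2 values of 22011 probe sets, normalized between arrays. The submitters' processing notes name Partek 6.6, RMA and hg18 and no settings. RMA compresses differences of dim probe sets. No scanner files were used here. The platform annotation gave 1 gene for 14432 probe sets, several for 2408 and none for 5171; for genes with several probe sets the one with the highest mean was kept. limma 3.58.1 (R 4.3.3) fitted 1 mean per group over 9 arrays, with 6 residual degrees of freedom. The fit was tested on simulated data, with recovery required only for changes of 2 log2 units, larger than that of any autophagy gene. The labels do not state that replicates were separate cultures, and p-values reflect only the variation among these arrays, whose number limits the precision. Genes changed against both controls were given on every array, others by values and counts; of the pathway lists up to 3 genes per list were named, by the smaller of the 2 differences. Alternatives were a replicate block, median centring, further quantile normalization, a filter on the dimmest 30% of genes, an unmoderated fit of the kind the design text names, two-group fits, limma-trend and leaving out each array. The genes and lists were chosen with earlier results of these data known.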

Additional observations from a re-analysis of the deposited data

How the results depend on the processing

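Over 16 alternatives the number of autophagy genes changed against both controls stayed between 7 and 9, against 9 in the fit reported, and it was 9 with the replicate block. The genes lost were ATG2B and OPTN, and ULK2 was gained without negative control replicate 1. Genes called for the control mimic against non-transfected cells numbered 2174, 1287 in the unmoderated fit, and 1394 to 2181 when 1 array was left out (1394 without non-transfected replicate 2). The autophagy genes among them numbered 7, and 4 to 9 with 1 array left out. After median centring, 56.3% of those calls were higher in place of 45.8%, and 4 autophagy genes rose and 4 fell. No direction is therefore read from that split. For miR-520f the same centring gave 10 rises and 3 falls against each control. The fit reported had 8 and 4 against non-transfected cells, and 10 and 5 against the negative control. Signs turned in 29 of 2080 combinations of gene, comparison and alternative, over 19 genes and comparisons, none of them called; 1923 kept direction and call, 108 lost the call and 20 gained it. Against non-transfected cells the values that turned were those of ULK1 (-0.086 to 0.099 with 1 array left out, -0.041 after further quantile normalization), ATG10 (-0.0047 to 0.26 with 1 array left out), MAP1LC3B (-0.010 to 0.055), GABARAPL2 (-0.082 to 0.063, and 0.061 after median centring) and ATG4A (0.0033 after median centring). Against the negative control they were ULK1 (-0.20 to 0.0063 with 1 array left out), ATG101 (-0.036 to 0.38), WDR45 (-0.14 to 0.012), ATG3 (-0.072 to 0.075, and 0.013 after median centring), ATG10 (-0.23 to 0.025), TFEB (-0.10 to 0.0030) and CALCOCO2 (-0.0087 after further quantile normalization). Between the controls they were ULK2 (-0.097 to 0.12 with 1 array left out, 0.021 after median centring), PIK3C3 (-0.14 to 0.030), UVRAG (-0.24 to 0.037), ATG2B (-0.022 to 0.054), MAP1LC3A (-0.042 to 0.14), TFEB (-0.10 to 0.0012) and TFE3 (-0.14 to 0.0043). The cause was not tested. Pairing was looked for in the deviations of each array from its group mean. Between same-numbered arrays of different groups these deviations correlated at -0.0262 to 0.205, over 0.1 in 4 of 9 pairs. Between arrays with unlike numbers the correlations ranged from -0.437 to 0.33. For 5 of 9 arrays the highest correlation was with an array of their own number. These values do not settle whether the replicate numbers pair the samples, and a weak pairing remains possible. The replicate block called 4060, 4159 and 2297 genes in place of 3927, 3996 and 2174. It gained MAP1LC3A against the negative control (-0.27, adjusted p = 0.0346) and ATG5 between the controls (0.30, adjusted p = 0.0396). Means over several probe sets were not run, since no measured autophagy gene has more than 1 of its own.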
